A study of Solanum lycopersicum with 8 samples.

Results

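The 34 genes described here encode, by the class assigned to their identifiers, chlorophyll a/b-binding proteins (31 genes) and the small subunit of Rubisco (3 genes). They were found in the count table by identifier, and all 34 were present among its 34722 rows. The table pairs no identifier with a gene name, so the classes come from knowledge of the tomato annotation and were not checked against sequence. The chromosome of a gene is the one its identifier carries. Of the 34 genes, 33 passed the filter on low counts, and Solyc02g071030 had no count in any library.

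Chlorophyll a/b-binding proteins hold the chlorophyll of the light-harvesting antennae around photosystems I and II and pass the absorbed energy to the reaction centres. Rubisco fixes carbon dioxide in the chloroplast stroma, and its small subunit is encoded in the nucleus by a small gene family, whereas the large subunit is encoded in the chloroplast. Both families are among the most abundant nuclear transcripts of green leaves and are known for their response to light. DELLA proteins restrain gibberellin (GA) responses and are removed when GA is perceived.

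Messenger RNA was sequenced from young leaves of tomato seedlings in 4 groups of 2 libraries each. The seedlings were of the cultivar M82, with a functional DELLA gene PROCERA, or of the procera mutant pro∆GRAS, called "the mutant" below and "null" in the table. All 4 groups, the controls included, had been given paclobutrazol, which blocks GA synthesis, at 10 mg/l on 3 successive days. In each genotype, 1 group then received 100 µM GA3 and was collected 3 hours later, and the other did not. Libraries are named by the number in the table, which is 1 and 3 in every group except M82 with GA, where it is 1 and 2. The labels do not say whether the libraries of a group came from separate plants. Any p-value here weighs a difference between groups against the spread between libraries within groups. That spread was estimated over all 4 groups with information shared between genes, and it may be technical. The PROCERA transcript was not analysed here, since no annotation used here pairs identifiers with names. Each library held between 14395465 and 18483028 counts.

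The 34 genes took a large part of every library. In every group but the mutant without GA, it differed by several percentage points between the 2 libraries. In M82 without GA they took 17.1% of all counts in library 1 and 21.2% in library 3. With GA the share was 20.2% in library 1 and 26.3% in library 2. The M82 groups therefore overlapped, since library 3 without GA lay above library 1 with GA. In the mutant the share was 18.2% and 17.3% without GA and 13.4% and 16.8% with GA. Both mutant libraries with GA thus lay below both without it, by little in library 3. The group means were 19.1 ± 2.94% and 23.3 ± 4.27% in M82 without and with GA and 17.8 ± 0.688% and 15.1 ± 2.37% in the mutant (SD, n = 2). The 95% Wilson intervals of these shares, which cover counting error only, extended at most 0.0211 percentage points to either side.

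**Figure D1:**
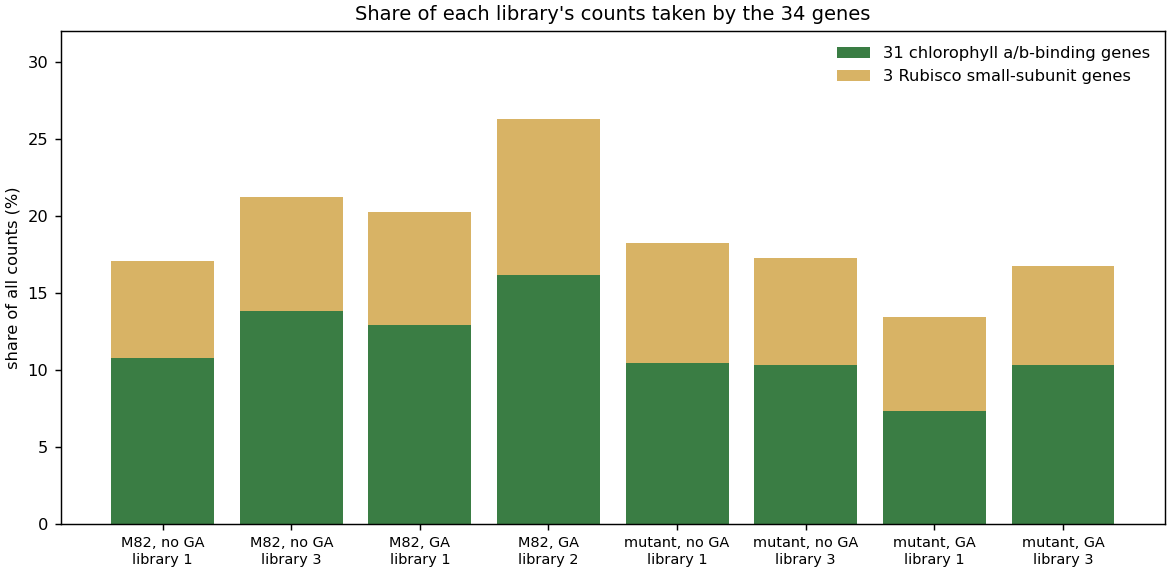
Share of all counts (%) in each of the 8 libraries taken by the 31 chlorophyll a/b-binding genes (green) and, stacked above, by the 3 Rubisco small-subunit genes (yellow). The highest bar is M82 library 2 with GA at 26.3% and the lowest is mutant library 1 with GA at 13.4%. In every group but the mutant without GA, the 2 libraries stand apart by several percentage points.

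The libraries with the highest shares were also those in which counts were most concentrated in a few rows outside the 34 genes. The 100 largest rows outside them held 34.4% of the remaining counts in M82 library 3 without GA and 36.5% in M82 library 2 with GA, against 24.1% to 30.0% in the other 6 libraries. Both libraries also had the lowest TMM scaling factors, 0.861 and 0.811, against 1.005 to 1.16 elsewhere. The part of this difference in composition in the results below was not tested. In bulk tissue, fewer green cells and less of these transcripts per cell cannot be told apart.

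The Rubisco small-subunit genes held ranks 1, 2 and 4 among all rows by total counts. Levels are given as CPM (counts over the TMM-scaled library size), which are not corrected for transcript length and are therefore compared between libraries and not between genes. Solyc03g034220, on chromosome 3, was the largest row of every library. Its level was 31773 and 46555 CPM in M82 libraries 1 and 3 without GA and 39042 and 70850.1 CPM in libraries 1 and 2 with GA. In the mutant it was 38589.7 and 35171 CPM without and 26264 and 31912 CPM with GA. The M82 groups overlapped, and both mutant libraries with GA lay below every other library except M82 library 1 without GA, which lay just under the higher of them. Solyc02g085950, on chromosome 2, was at 13505 and 22687 CPM without and 15995 and 32228 CPM with GA in M82, and at 20045 and 18896 CPM without and 15577 and 16006 CPM with GA in the mutant. Its lowest level was in M82 library 1 without GA and its highest in M82 library 2 with GA, so the range of the M82 libraries held all 4 mutant values. Solyc02g063150, also on chromosome 2, was at 14863 and 16419 CPM without and 17051 and 22067 CPM with GA in M82, and at 16052 and 14971 CPM without and 10290.0 and 10733 CPM with GA in the mutant. It was the small-subunit gene whose GA libraries lay apart from the others in both genotypes, higher in M82 and lower in the mutant.

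Among the chlorophyll a/b-binding genes, Solyc02g070940 on chromosome 2 and Solyc03g005780 on chromosome 3 had the most counts. Solyc02g070940 was at 10731 and 12865 CPM without and 10324 and 14091 CPM with GA in M82, and at 9539 and 10674 CPM without and 6911 and 8821 CPM with GA in the mutant. Solyc03g005780 was at 7742 and 14394 CPM without and 10523 and 16126 CPM with GA in M82 and at 8882 and 9688 CPM without and 5192 and 8519 CPM with GA in the mutant. In both genes the M82 groups overlapped and the mutant groups did not. The next 8 by mean CPM, Solyc02g071010, Solyc07g047850, Solyc02g070980, Solyc06g063370, Solyc02g070970, Solyc02g071000, Solyc03g115900 and Solyc09g014520, ranged from 2052 CPM (Solyc02g070970 in mutant library 1 with GA) to 12623 CPM (Solyc02g070980 in M82 library 2 with GA). The tested gene with the fewest counts, Solyc06g069000, had 8.95 to 23.3 CPM. Of the 100 rows with the most counts, 24 were among the 34 genes, and 23 of these were among the top 50.

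In every group but the mutant without GA, differences between the 2 libraries ran in the same direction across nearly all genes of both families. In M82 without GA, 32 of 33 genes were higher in library 3 than in library 1, with a median of 1.55-fold, against 1.02-fold for all tested genes. With GA, 33 of 33 were higher in M82 library 2 than in library 1 (median 1.57-fold). In the mutant without GA no direction prevailed, with 17 genes higher and 16 lower in library 3 (median 1.01-fold). With GA, 30 of 33 were higher in mutant library 3 than in library 1 (median 1.39-fold). M82 library 2 with GA held the highest level of 32 genes, and mutant library 1 with GA the lowest level of 29. The exceptions were Solyc07g022900, highest in M82 library 3 without GA, Solyc03g005770, Solyc08g067320 and Solyc08g067330, lowest in mutant library 3 with GA, and Solyc02g085950, lowest in M82 library 1 without GA.

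**Figure D2:**
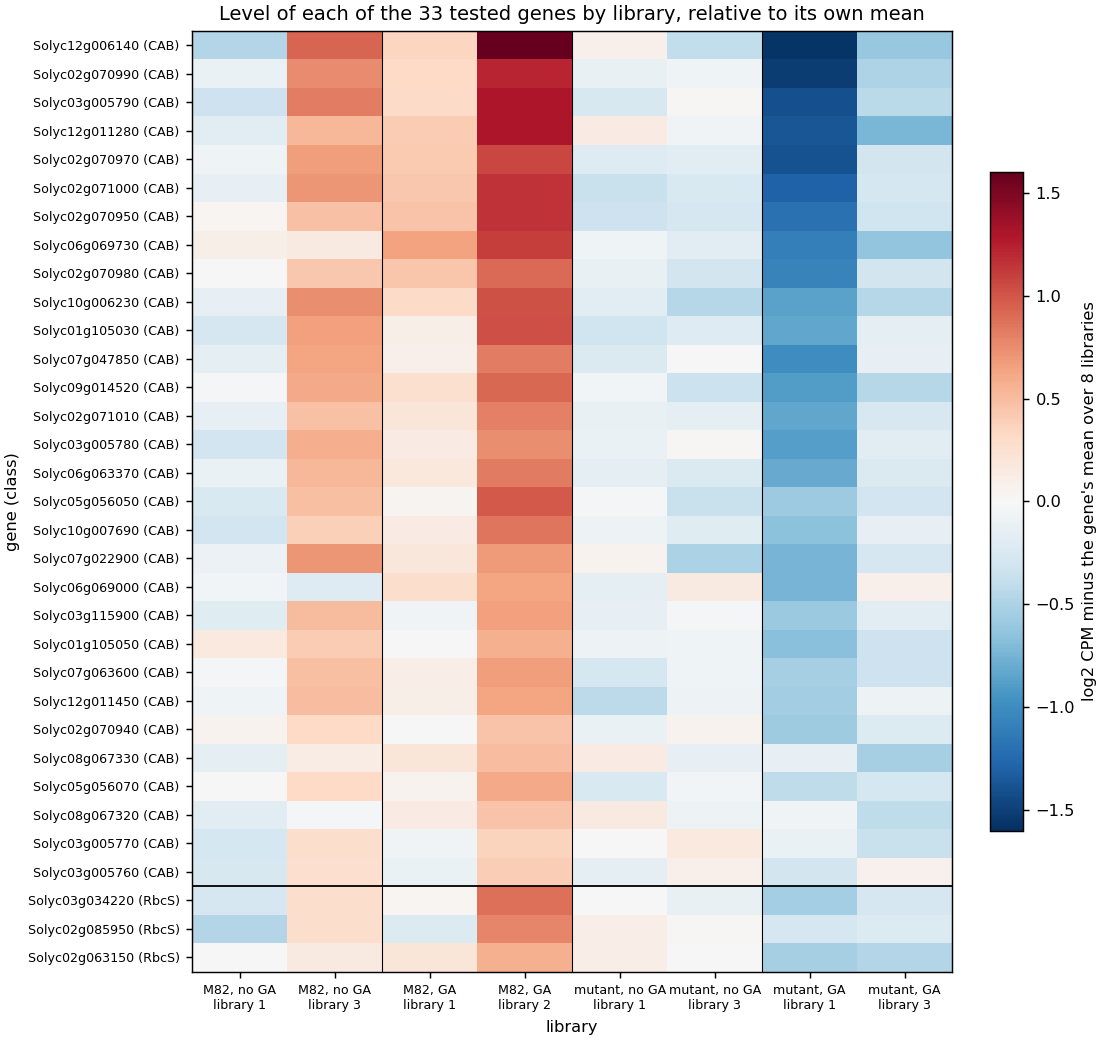
Level of each of the 33 tested genes (rows; CAB, chlorophyll a/b-binding; RbcS, Rubisco small subunit) in the 8 libraries (columns), as log2 CPM minus the gene's own mean over the libraries. M82 library 2 with GA holds the highest level of 32 genes and mutant library 1 with GA the lowest of 29, and within each class the rows are ordered by their range.

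The genes varied between libraries to unequal degrees, also among neighbouring identifiers. The ratio of the highest to the lowest library ranged from 1.61 to 9.52, with a median of 2.94, against a median of 2.24 over the 17887 tested genes with counts in every library. The highest ratio belonged to Solyc12g006140 on chromosome 12, with 1004 and 2635 CPM without and 1765 and 4441 CPM with GA in M82 and 1465 and 1054 CPM without and 466 and 913 CPM with GA in the mutant. In the chromosome 2 cluster (Solyc02g070940 to Solyc02g071030), the ratio was 2.04 for Solyc02g070940 and 6.67 for Solyc02g070990, and the other 5 with counts lay between 3.12 and 5.52. Solyc02g070990 was at 3984 and 7244 CPM without and 5313 and 9969 CPM with GA in M82 and at 3948 and 4060.2 CPM without and 1495 and 3043 CPM with GA in the mutant. Solyc02g070950, which had the fewest counts of those 7, was at 3679 and 4993 CPM without and 4951 and 8036 CPM with GA in M82 and 2880.1 and 2991 CPM without and 1582 and 2883 CPM with GA in the mutant. In the chromosome 3 cluster the ratio was 1.61 for Solyc03g005760, 1.65 for Solyc03g005770, 3.11 for Solyc03g005780 and 6.48 for Solyc03g005790. Solyc03g005790 had the fewest counts of that cluster, from 53.7 CPM in mutant library 1 with GA to 348 CPM in M82 library 2 with GA. The chromosome 8 pair, Solyc08g067320 and Solyc08g067330, had 44.8 to 80.9 and 46.8 to 95.1 CPM, and the second had 1.05 to 1.26 times the counts of the first.

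Counts of single genes in these clusters are uncertain, since tandem chlorophyll a/b-binding genes of tomato can be near-identical and how reads matching several copies were counted is not given in the sources used here. The 0 for Solyc02g071030 allows up to 0.162 to 0.208 CPM of each library's total (a floor of 3 counts, for counting error only). The cluster's identifier range held 2 further rows, Solyc02g070960 with no count and Solyc02g071020 with 17605 to 37008 counts per library, to which no class was assigned.

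The comparison of M82 with and without GA asks which transcripts change within hours of GA when DELLA is functional, and no gene of either family was called. Every one of the 33 genes had a log2 fold change above 0, from 0.026 (Solyc01g105050) to 0.77 (Solyc06g069730), with a median of 0.35, against -0.0026 for all tested genes. The median was 0.34 for the 30 chlorophyll a/b-binding genes and 0.41 for the 3 Rubisco small-subunit genes. The quasi-likelihood test of edgeR called 0 of 33 (adjusted p under 0.05), against 0.0164% of all tested genes. DESeq2 also called 0, against 0.589% of all tested genes, and 1 of 33 had an unadjusted p under 0.05 in edgeR, against 7.62%. In 6 of 33 genes both GA libraries lay above both others, a share close to the 19.3% of all tested genes. With library totals as the only scaling, 31 of 33 were above 0 and 2 below.

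Solyc06g069730, on chromosome 6, was the gene at an unadjusted p under 0.05. It was at 680.3 and 705 CPM in M82 libraries 1 and 3 without GA and at 996 and 1374 CPM in libraries 1 and 2 with GA. The groups were separate, with a log2 fold change of 0.77 (standard error 0.297, adjusted p = 0.605 in edgeR). Solyc01g105050, on chromosome 1, was at 4786 and 5715 CPM without and 4317 and 6372 CPM with GA, and its groups overlapped (log2 ratio 0.026 with a standard error of 0.333, adjusted p = 0.996 in edgeR). For Solyc03g034220, the largest row, the log2 fold change was 0.49 (standard error 0.42, adjusted p = 0.80 in edgeR). The median over the 33 genes rested on single libraries. Relative to the median of all tested genes it was 0.35 with all libraries, -0.04 without M82 library 2 of the GA group and 0.06 without library 1 of the other group. It was 0.60 without library 3 of the GA-free group and 0.62 without library 1 of the GA group.

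In the mutant, which lacks the functional DELLA protein, the values after GA lay on the other side, and again no gene was called. All 33 log2 fold changes were below 0, from -1.05 (Solyc12g011280) to -0.061 (Solyc12g011450), with a median of -0.34, against -0.0099 for all tested genes. The medians were -0.35 for the chlorophyll a/b-binding genes and -0.34 for the Rubisco small-subunit genes. At an adjusted p under 0.05, edgeR called 0 of 33 and 0% of all tested genes, and DESeq2 called 0 of 33 and 0.158% of all. An unadjusted p under 0.05 was found for 2 of 33, against 2.67% of all tested genes. In 20 of 33 genes both GA libraries lay below both others, against 14.9% of all tested genes. With library totals as the only scaling, which shifted the median of all tested genes to 0.13, 31 of 33 were below 0 and 2 above.

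Solyc12g011280, on chromosome 12, was at 753 and 662 CPM in mutant libraries 1 and 3 without GA and at 267 and 415 CPM with GA. The groups were separate (log2 ratio -1.05 with a standard error of 0.398, adjusted p = 0.99998 in edgeR). Solyc06g069730 was the other gene at that level, at 611 and 564 CPM without and 299.8 and 411 CPM with GA, again with separate groups (log2 ratio -0.72 with a standard error of 0.296, adjusted p = 0.99998 in edgeR). Solyc12g011450, also on chromosome 12, was at 3333 and 4208 CPM without and 3027 and 4200.4 CPM with GA, and its groups overlapped. The median over the 33 genes, relative to all tested genes, was -0.33 with all libraries and -0.11 without mutant library 1 with GA, where 27 of 33 genes were lower after GA. It was -0.57 without mutant library 3 with GA.

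**Figure D3:**
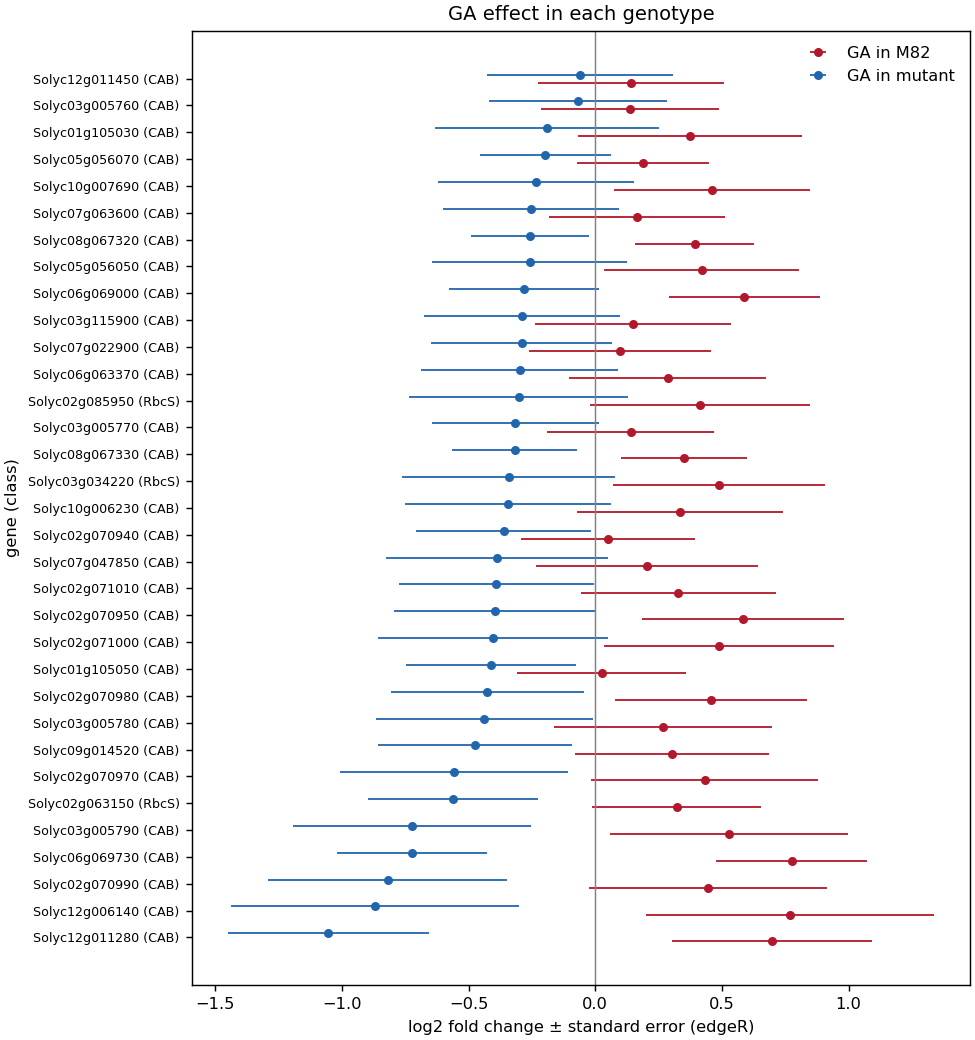
Log2 fold change with GA in M82 (red) and in the mutant (blue) for each of the 33 tested genes (CAB, chlorophyll a/b-binding; RbcS, Rubisco small subunit), ordered by the value in the mutant, with bars of 1 standard error from edgeR. With TMM scaling all red points lie above 0 and all blue points below it, and many bars reach 0.

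Whether the response depends on DELLA is asked by subtracting the GA effect in M82 from that in the mutant, and no gene was called. This difference, mutant minus M82, was below 0 for all 33 genes, from -1.75 (Solyc12g011280) to -0.20 (Solyc12g011450), with a median of -0.69 against -0.0010 for all tested genes. By adjusted p under 0.05, edgeR called 0 of 33 and 0% of all tested genes, and DESeq2 0 of 33 and 0.109% of all. With library totals as the only scaling, 32 of 33 were below 0, beside a median of 0.20 over all tested genes. An unadjusted p under 0.05 was found for 2 of 33, against 3.76% of all tested genes. These were Solyc06g069730 (-1.50 with a standard error of 0.419, adjusted p = 0.994 in edgeR and 0.13 in DESeq2) and Solyc12g011280 (-1.75 with a standard error of 0.561, adjusted p = 0.994 in edgeR and 0.347 in DESeq2). Relative to all tested genes, the median was -0.69 with all libraries. It was -0.36 without M82 library 2 with GA, -0.37 when M82 library 1 without GA was left out, and -1.02 when library 3 of that group was.

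Without GA, no gene of either family was called between the mutant and M82. This comparison and the next share their libraries with the GA comparisons, so the values are not independent of those above. The log2 fold changes, mutant over M82, ran from -0.67 (Solyc10g006230) to 0.13 (Solyc08g067320), with 28 of 33 below 0 and a median of -0.34, against -0.015 for all tested genes. The chlorophyll a/b-binding genes had a median of -0.39 and the Rubisco small-subunit genes one of -0.012. None of the 33 was called by edgeR (0.393% of all tested genes) or by DESeq2 (2.25%), and 0 had an unadjusted p under 0.05 in edgeR, against 10.2% of all. In 13 of 33 genes, all of them chlorophyll a/b-binding genes, both mutant libraries lay below both M82 libraries, against 17.6% of all tested genes.

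Solyc10g006230, on chromosome 10, was at 4369 and 7999 CPM in M82 libraries 1 and 3 and at 4278 and 3500.0 CPM in mutant libraries 1 and 3. The groups were separate, by a small gap to M82 library 1 (log2 ratio -0.67 with a standard error of 0.408, adjusted p = 0.672 in edgeR). Its value was -0.20 with M82 library 3 left out and -1.04 with M82 library 1 left out. Solyc08g067320, on chromosome 8, was at 52.6 and 58.4 CPM in M82 and 65.4 and 56 CPM in the mutant, with overlapping groups (log2 ratio 0.13 with a standard error of 0.235, adjusted p = 0.94 in edgeR). The median depended on M82 library 3 without GA. Relative to all tested genes it was -0.32 with all libraries, -0.0017 without that library, with 18 genes below 0 and 15 above, and -0.66 when library 1 of that group was left out.

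After GA, the values of both families lay lower in the mutant than in M82, with the largest median of the 5 comparisons in size, and which genes were called depended on the tool and the settings. All 33 log2 fold changes were below 0, from -2.17 (Solyc12g006140) to -0.27 (Solyc03g005760). The median was -0.96, against 0.011 for all tested genes, and it was -1.01 for the chlorophyll a/b-binding genes and -0.90 for the Rubisco small-subunit genes. In 31 of 33 genes both mutant libraries lay below both M82 libraries, against 25.2% of all tested genes. The exceptions were Solyc03g005760 and Solyc02g085950. With library totals as the only scaling, which shifted the median of all tested genes to 0.32, Solyc03g005760 was at 0.065 and the other 32 remained below 0.

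At an adjusted p under 0.05, edgeR called 0 of these 33 genes, where 0.354% of all tested genes were called. DESeq2 called 12 of 33 lower in the mutant, 11 chlorophyll a/b-binding genes and 1 Rubisco small-subunit gene, against 1.48% of all tested genes. edgeR itself called 4 of 33 without the filter on low counts, with 438 of 23786 genes called in all. The calls also changed with the library left out, even for M82 libraries 1 and 3 without GA, which are no part of this comparison. With library 1 or 3 of that group left out, Solyc06g069730 was at -1.74 and -1.72 (log2). Solyc12g011280 was then at -1.93 and -1.92. Such fits leave 1 library in a group, so their calls are not counted here. In edgeR, 24 of 33 were lower at an unadjusted p under 0.05, against 7.41% of all. The smallest edgeR adjusted p was that of Solyc06g069730, at 996 and 1374 CPM in M82 libraries 1 and 2 and 299.8 and 411 CPM in mutant libraries 1 and 3. Its log2 fold change was -1.74 (standard error 0.303, adjusted p = 0.0573 in edgeR and 8.75e-07 in DESeq2). Solyc12g011280 was at 912 and 1689 CPM in M82 and 267 and 415 CPM in the mutant (log2 ratio -1.93 with a standard error of 0.407, adjusted p = 0.0918 in edgeR and 8.66e-05 in DESeq2). In both genes the lower M82 library had more than the higher mutant library.

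Solyc12g006140 had the lowest log2 fold change, -2.17 (standard error 0.59, adjusted p = 0.156 in edgeR and 0.00178 in DESeq2). Its standard error was the largest of the 33, and its M82 libraries with GA differed from each other 2.52-fold. With M82 library 2 of the GA group left out, its value was -1.34 (adjusted p = 0.666 in edgeR). Solyc02g063150 was the Rubisco small-subunit gene that DESeq2 called (log2 ratio -0.90 with a standard error of 0.336, adjusted p = 0.279 in edgeR and 0.0214 in DESeq2). The other 8 that DESeq2 called, named after their values were seen, were Solyc02g070950, Solyc02g070970, Solyc02g070980, Solyc02g070990, Solyc02g071000, Solyc03g005790, Solyc09g014520 and Solyc10g006230. Of the 12, 5 lay in the chromosome 2 cluster. In that cluster, Solyc02g070940 at its start was not called (log2 ratio -0.63, adjusted p = 0.418 in edgeR and 0.256 in DESeq2). Nor was Solyc02g071010 (log2 ratio -1.05, adjusted p = 0.275 in edgeR and 0.0604 in DESeq2). Solyc03g005760, with the smallest difference, was at 4313 and 6120.4 CPM in M82 and 3805 and 4862 CPM in the mutant (log2 ratio -0.27 with a standard error of 0.351, adjusted p = 0.751 in edgeR).

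**Figure D4:**
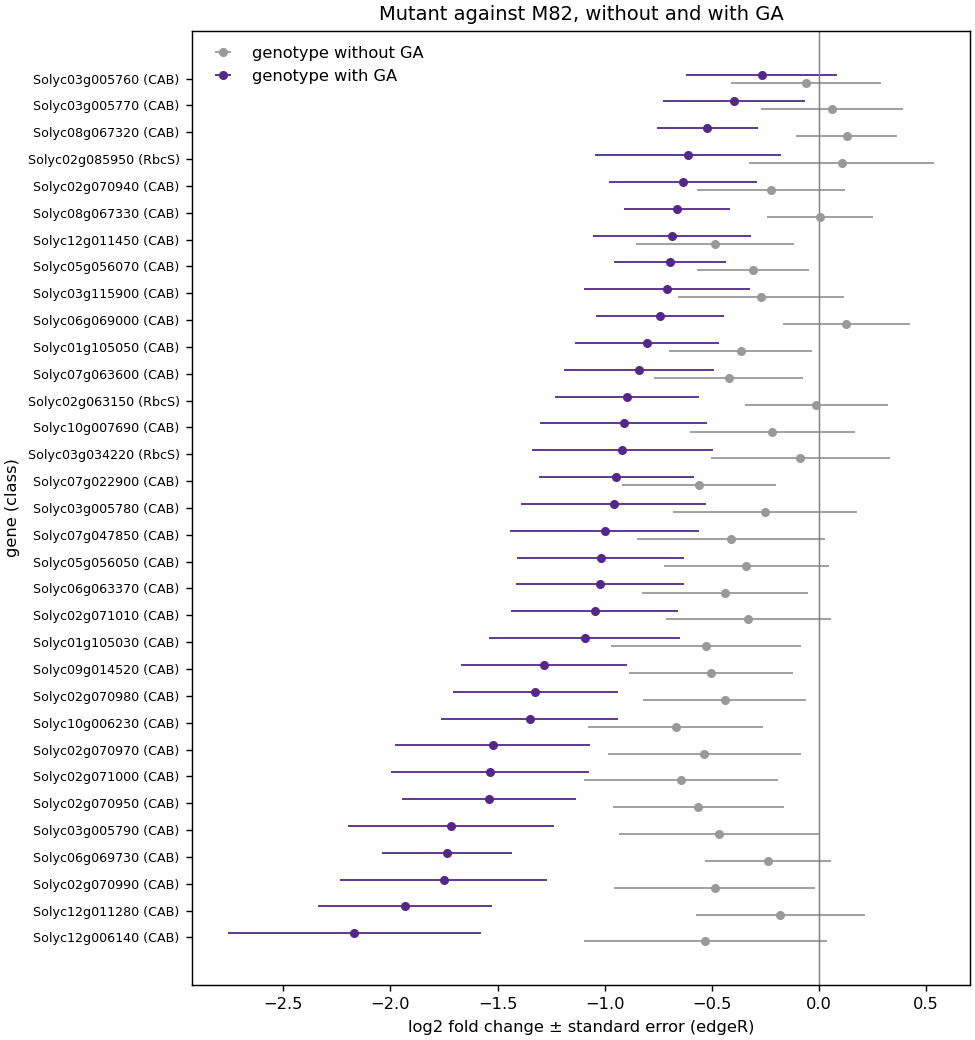
Log2 fold change of the mutant over M82 without GA (grey) and with GA (purple) for each of the 33 tested genes (CAB, chlorophyll a/b-binding; RbcS, Rubisco small subunit), ordered by the value with GA, with bars of 1 standard error from edgeR. With TMM scaling all points with GA lie below 0, from -2.17 to -0.27, and without GA 28 of 33 do, from -0.67 to 0.13.

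Relative to all tested genes, the median for GA in M82 changed sign when 1 library was left out. That for the genotypes without GA shrank to -0.0017 when M82 library 3 without GA was left out. The median between the genotypes with GA kept its sign when any 1 library was left out, as did those for GA in the mutant and the interaction. Relative to all tested genes, the median between the genotypes with GA was -0.97 with all libraries. It was -0.59 when M82 library 2 with GA was left out and -0.77 when mutant library 1 with GA was, the libraries with the highest and the lowest levels. It was -1.32 without M82 library 1 with GA. Without the pair of M82 libraries that stood apart in composition (library 3 of the GA-free group, library 2 of the GA group), a choice made after seeing the data, the median was -0.59 with 32 of 33 genes below 0, and 0 were called, against 35 of all 18340 tested genes. In that fit the median was 0.27 for GA in M82 and -0.0016 for the genotypes without GA. The library left alone in its group is assumed there to vary like the others.

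**Figure D5:**
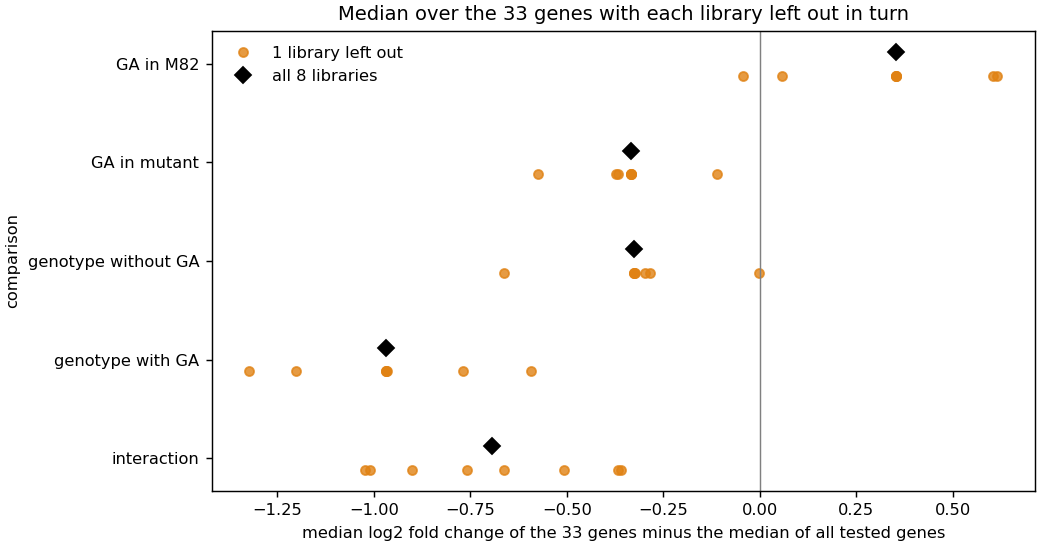
Median log2 fold change of the 33 tested genes minus the median of all tested genes, in each of the 5 comparisons, with all 8 libraries (black diamonds) and with each library left out in turn (orange points). With 1 library left out, the median for GA in M82 lies between -0.04 and 0.62 and that for the genotypes without GA between -0.66 and -0.0017. The genotypes with GA stay between -1.32 and -0.59 and GA in the mutant between -0.57 and -0.11. The interaction, the GA effect in the mutant minus that in M82, stays between -1.02 and -0.36.

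Ratios between genes of the same library do not depend on the scaling. In M82, Rubisco small-subunit counts per chlorophyll a/b-binding count were 0.581 and 0.533 in the GA-free libraries and, in those given GA, 0.569 and 0.628. In the mutant they were 0.748 and 0.671 without and 0.824 and 0.627 with GA. Of the mutant libraries, 3 lay above all 4 M82 libraries, and library 3 with GA lay just below the highest of them. Within the small-subunit family, Solyc03g034220 took 50.4% to 56.6% of the counts in every library. Solyc02g063150 took 24.7% and 23.7% in the M82 libraries numbered 1 and 19.2% and 17.6% in the other 2 of M82, and 18.3% to 21.7% in the mutant. In both treatments of M82 its share was thus higher in the library numbered 1.

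Among chlorophyll a/b-binding counts, the share of Solyc12g006140 ranged from 0.737% in mutant library 1 with GA to 2.23% in M82 library 2 with GA. Solyc12g011280 took 0.72% and 0.848% in M82 with GA and 0.422% and 0.443% in the mutant with GA. Solyc03g005760 took a larger share in the mutant with GA, 6.01% and 5.2%, than in M82 with GA, 3.41% and 3.07%. Its level was not larger there, at 3805 and 4862 CPM in the mutant against 4313 and 6120.4 CPM in M82. These genes were named as extremes of the comparisons in the same libraries, so unequal shares follow from that choice. Whether the family as a whole kept fixed proportions was not tested. Solyc06g063370, by contrast, took 5.11% to 5.62% in all 8 libraries, and Solyc02g071010 took 6.22% to 6.68%.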

How the data were processed

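RNA from young leaves was made into libraries with the TruSeq RNA kit v2, which does not mark strand, and 8 libraries shared 1 lane, per the labels' protocols. TopHat2 2.0.10, HTSeq 0.6.1p1 and DESeq2 1.6.3 are named in the submitters' processing notes; the genome build, the annotation and the counting options are not given in the sources used here. The deposited table holds raw counts per gene, per the file headers, and these were used as deposited; 8 further columns of values normalised by the authors were not used. Antisense and overlapping genes cannot be told apart without strand.

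The column names gave each library its group. In 5 columns the number also matches a sample title, and in 3 (number 3) it matches none, so these are replicates without a label of their own. The 2 libraries of a group were not copies of each other (chi-square per degree of freedom at least 34.1 over their genes). Total counts per library are given in the report, and counting error at that depth is small for all but the smallest rows.

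Of 34722 genes, 18340 passed filterByExpr (minimum count 10) and held 99.94% of counts. edgeR 4.0.16 in R 4.3.3 fitted a robust quasi-likelihood model with 1 mean per group to all 8 libraries (TMM scaling, 4 residual degrees of freedom), and 5 contrasts were tested two-sided, with Benjamini-Hochberg adjustment over all tested genes. Standard errors were taken as the size of the log2 ratio over the root of the F statistic. DESeq2 1.42.0 was an alternative, without independent filtering. The scripts were tested on simulated data. Other scalings, filters, blocks and left-out libraries were tried.

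The 34 genes and the lists were chosen with earlier results of these data known. Genes were named by rule: the 3 Rubisco genes, the 10 chlorophyll a/b-binding genes with the highest mean CPM, any called gene, the extremes of each comparison, genes below 10 counts in every library, and the extremes of each cluster. No annotation used here matched the identifiers, so lengths, sequences and other photosynthesis genes were not analysed here.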

Additional observations from a re-analysis of the deposited data

Results flagged for a closer look

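In 3 of the 33 tested genes, both GA libraries lay above both libraries without GA in M82 and below both in the mutant, and this was so in 2.36% of all tested genes. The GA effect in the mutant minus that in M82 was -0.88 on the log2 scale for Solyc02g070980, -1.50 for Solyc06g069730 and -0.88 for the Rubisco small-subunit gene Solyc02g063150. The difference itself was tested in edgeR and was not called for any of them (adjusted p = 0.994 each).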

How the results depend on the processing

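Each comparison was refitted under other scalings, filters, tools, blocks and sets of libraries. The count of called genes was 0 in every comparison and setting except for the genotypes with GA, where it was 0 with all libraries in edgeR. There it was 4 without the filter on low counts (438 of 23786 genes called in all) and 12 in DESeq2 (552 of 18340). It also changed with the library left out, but those fits leave 1 library in a group, so their calls are not counted here. With all libraries in edgeR 65 of 18340 were called, so the calls over all genes were also more numerous without the filter and in DESeq2. The cause was not tested.

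Libraries of a group share only a number across groups. The deviations of the libraries numbered 1 correlated at 0.54 between the M82 groups without and with GA. For the other pairs of groups the correlation was -0.077 to 0.26. What the number stands for was not tested. With a replicate block of number 1 against the other library, 4 of the 33 genes were called for the genotypes with GA, and 200 of 18340 in all. For GA in M82, that block left the median at 0.35 and called 0 of the 33 genes. Over all 18340 genes it called 33 there, against 3 without a block. With the number in the table as a replicate block, the median for GA in M82 was 0.14 with 28 of 33 genes above 0. M82 library 2 with GA is the only library numbered 2, so its block fits that library alone. The M82 group with GA then rests on library 1, and the value is no separate check of the effect.

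The members' share, taken over the counts outside them, was 23.7% and 30.5% in M82 without and with GA and 21.6% and 17.8% in the mutant, by construction of the smaller denominator. Library totals as the only scaling shifted the median of all tested genes to at most 0.32 (log2), reached for the genotypes with GA. The median of the 33 genes relative to it was -0.94 in that comparison.

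Of the genes named as extremes of a comparison, 3 changed sign under some settings. Solyc01g105050 in M82 with GA was at -0.051 with library totals, -0.17 with the number in the table as a block, -0.14 without both M82 libraries that stood apart (chosen after seeing the data), and from -0.27 to 0.28 with 1 library left out. Solyc12g011450 in the mutant with GA was at 0.080 with library totals and from -0.32 to 0.16 with 1 library left out. Its difference between genotypes was 0.00016 with library totals and from -0.46 to 0.099 with 1 library left out. Solyc03g005760 between genotypes with GA was at 0.065 with library totals, 0.018 without both M82 libraries, and from -0.50 to 0.018 with 1 library left out. Solyc02g071030 had no counts in any library, and the reason was not tested. With 2 libraries a group, the spread between libraries limits the other genes.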
